A study of Homo sapiens with 6 samples.

Results

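The NRF2 pathway genes described here are 35 genes taken by symbol, namely the transcription factor NRF2 (gene NFE2L2), its repressor KEAP1, the small MAF partners MAFG and MAFF, and target genes reported for this pathway, without the aldo-keto reductases, aldehyde dehydrogenases, thioredoxins and peroxiredoxins. All 35 symbols had a row among the 32192 genes of the count table, and all 35 were among the 16971 genes that passed the filter on low counts. They were followed in A549, a cell line of human lung adenocarcinoma that is known to carry a mutated KEAP1. The values used here are counts and carry no sequence, so the mutation itself was not examined.

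NRF2 is held at a low level by KEAP1, which brings it to a ubiquitin ligase, and oxidants or electrophiles that modify KEAP1 let NRF2 accumulate, pair with a small MAF protein and bind antioxidant response elements beside its target genes. The targets make and recycle glutathione, supply NADPH, detoxify quinones, carbonyls and xenobiotics, break down heme and store iron. In lung adenocarcinoma, mutations of KEAP1 are known to keep this program on.

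The study compared A549 cells transiently transfected with a plasmid for APEX1, a DNA repair endonuclease and redox regulator of transcription factors (APEX1-OE), with cells that received a control plasmid (Ctrl). The APEX1 reading frame, joined to a FLAG tag, was placed in the vector pIRES-hrGFP-1a, and both groups shared the cell line, the culture medium and a stranded library preparation from polyadenylated RNA. There were 3 libraries in each of the 2 groups, called here APEX1-OE 1 to 3 and Ctrl 1 to 3. The libraries held 28987040, 41009197 and 35234411 counts in APEX1-OE and 28131955, 34398771 and 35834880 in Ctrl. The labels do not say that the libraries of a group came from separate cultures. The paper states that all its experiments were done 3 times, without saying how this applies to the libraries. The p-values therefore measure the spread between these libraries, which may be technical.

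The labels were checked on APEX1 itself, which stood at 618, 680.3 and 768 FPKM (fragments scaled by transcript length and library depth) in APEX1-OE 1, 2 and 3 and at 129, 126 and 124 FPKM in Ctrl 1, 2 and 3. The groups did not overlap, and transcripts of the plasmid and of the chromosomal gene were not separated. Among cell type markers, all 6 epithelial genes were detected, with a summed level of 6198 to 9216 FPKM per library and KRT8 as the most abundant gene (2558 to 3562 FPKM). Nearly all of that sum came from keratins: CDH1 stood at 4.52 to 10.71 FPKM, and EPCAM was low, at 0.18 to 0.52 FPKM on 15 to 47 counts, so that 5 of the 6 genes had a mean over 1 FPKM. CDKN2A, which is deleted in A549, was listed at 0 in 5 libraries and at 0.01 FPKM in Ctrl 2. The markers of alveolar type II cells summed to 0.02 to 0.16 FPKM (2 of 3 genes listed, SFTPC highest), those of endothelium to 0.03 to 0.04 FPKM (3 of 3 genes, PECAM1 highest) and those of fibroblasts to 0.8 to 1.41 FPKM (4 of 4 genes, COL1A1 highest). The leukocyte markers summed to 1.52 to 3.23 FPKM (3 of 4 genes listed), nearly all of it CD14 (1.51 to 3.18 FPKM), and no listed marker of any of these cell types was at 0 in all 6 libraries.

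The libraries also stood apart from each other across the 2 groups. The first principal component of log2 CPM (counts scaled by library depth and by TMM, a normalisation factor for each library, and not by transcript length) over all tested genes held 72.6% of the variance, with APEX1-OE 1, Ctrl 1 and Ctrl 2 on its first side and APEX1-OE 2, APEX1-OE 3 and Ctrl 3 on its second. The sides were read from the counts and are not a batch named by the labels. The mean exon GC content of the counts was 53.5%, 52.5% and 52.6% on the first side and 51.3%, 50.5% and 50.8% on the second, each in the order just given. APEX1-OE 1 lay farthest out on the first side, with a score of -58.5 against -32.7 for Ctrl 1 and -31.1 for Ctrl 2.

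The core letters of the antioxidant response element, TGACNNNGC, were searched on both strands in the RefSeq promoter windows of GRCh38.p14 (250 bases before to 50 bases after a start), which were given for 26 of the 35 genes. The core was found in 12 of the members' 34 windows (35.3%), against 13.3% of the 35116 windows of all genes and 14.5% of the 15539 windows of tested genes. The match overlapped the AP-1 motif TGANTCA in 2 of the members' windows (5.88%), against 0.561% of all windows. Shown are the windows in which members share the same 9 letters, or the core of a gene whose values are given in every library, each read on the strand that carries the core, with the core in capitals and 10 bases on each side.
KEAP1 (chr19:10502784-10502812, plus strand): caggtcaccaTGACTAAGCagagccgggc
GCLM (chr1:93909446-93909474, plus strand): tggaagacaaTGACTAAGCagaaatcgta
KEAP1, other core (chr19:10502807-10502835, minus strand): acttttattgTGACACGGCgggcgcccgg
UGT1A6 (chr2:233692782-233692810, plus strand): aggtgaaagcTGACACGGCcatagttggt
GPX2 (chr14:64942849-64942877, plus strand): atccccaggaTGACTTAGCaaaaacaggt
ME1 (chr6:83431170-83431198, minus strand): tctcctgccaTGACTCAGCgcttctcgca
PIR (chrX:15493289-15493317, plus strand): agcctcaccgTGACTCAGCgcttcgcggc
MAFF (chr22:38201862-38201890, minus strand): cgcccccgtaTGACCCCGCcccctggaag
PGD (chr1:10398853-10398881, minus strand): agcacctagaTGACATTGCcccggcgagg

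KEAP1 and GCLM carried the same 9 letters, centred 27 and 30 bases before their starts. The other core of KEAP1, centred 50 bases before its start, had the same 9 letters as that of UGT1A6, centred 94 bases before its start. ME1 and PIR shared the core that overlaps the AP-1 motif. The centres lay 133 bases before the start in ME1 and 30 bases after it in PIR. ME1 held another core that no other member shared and that is not shown. The windows of IDH1, CBR1, EPHX1 and CYP4F11 also held a core, and 14 genes with a window, among them NFE2L2, NQO1, GCLC and SRXN1, had none in these 300 bases, which says nothing of the rest of the gene. No window was given for SLC7A11, GSR, CBR3, CES1, HMOX1, FTH1, ABCC1, ABCC3 and TRIM16L. A match of letters is a description and not a binding site.

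The levels of the 35 genes spanned a wide range (plot of FPKM by library). FTL, the light chain of ferritin, had the highest mean level in Ctrl of all genes listed above 0 in every library, and FTH1, the heavy chain, held rank 4. The median member stood at 39.9 FPKM in Ctrl, against 2.55 FPKM for all tested genes. UGT1A6, a glucuronosyltransferase, was the lowest member. Together the 35 genes took 2.69%, 2.3% and 2.18% of the counts in APEX1-OE 1, 2 and 3 and 2.74%, 2.64% and 2.35% in Ctrl 1, 2 and 3. The share was lower in each library of the second side than in any of the first.

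**Figure D1:**
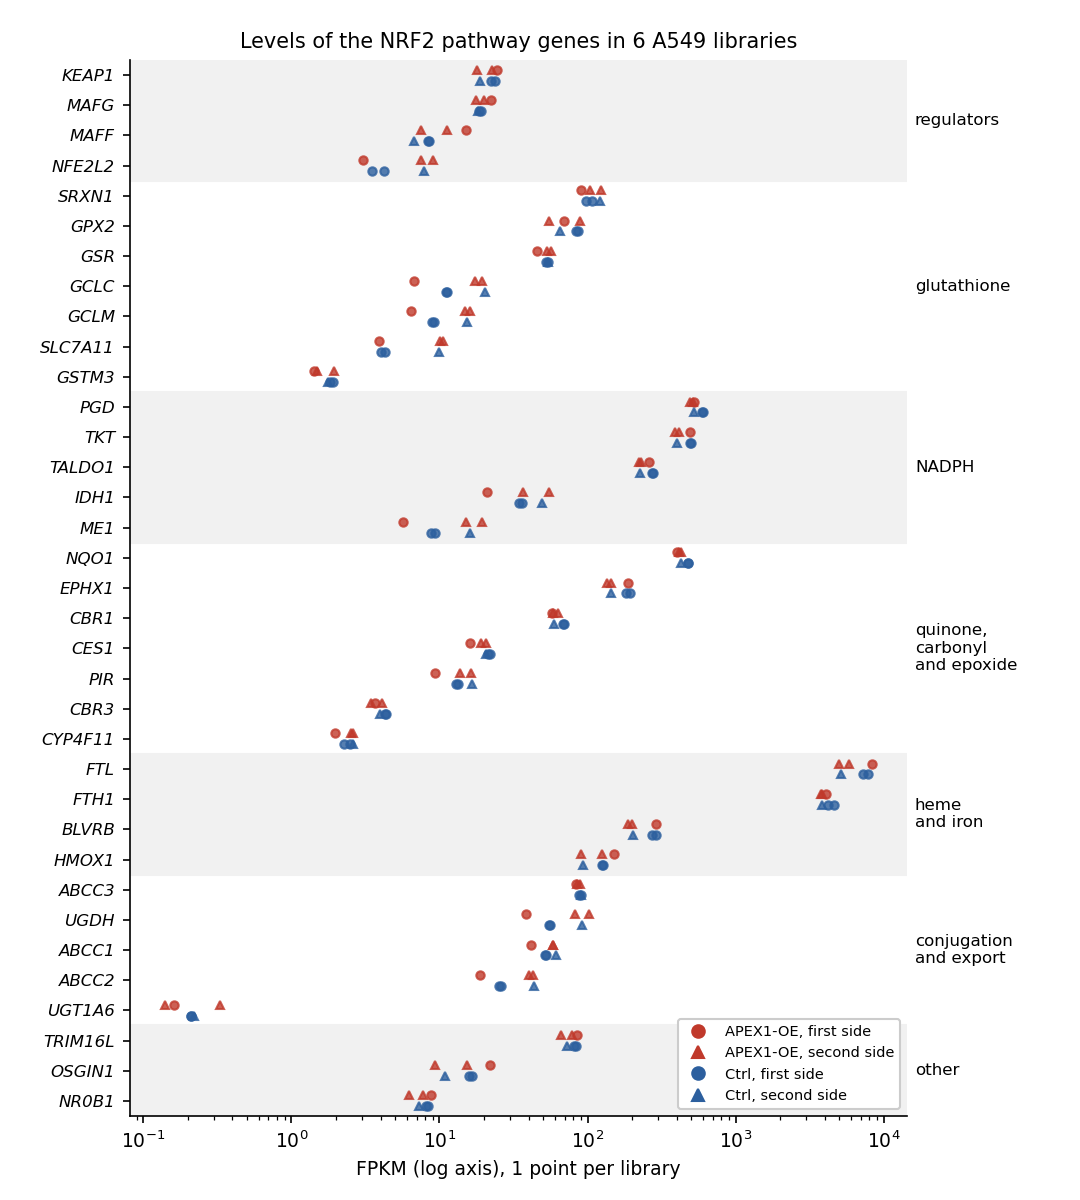
FPKM of the 35 genes in the 6 libraries on a log axis, grouped by role, with APEX1-OE in red and Ctrl in blue, circles for the first side and triangles for the second side of the first component. FTL and FTH1 lie at or above 3770 FPKM in every library, and NFE2L2 stays between 3.06 and 9.06 FPKM.

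Against this background, no member passed the test between APEX1-OE and Ctrl. In edgeR's quasi-likelihood test 0 of 35 members were called at an adjusted p under 0.05 over all genes, and 1 of 16971 genes was (0.00589%), which was APEX1. At an unadjusted p under 0.05 the counts were 0 of 35 members and 118 of all genes (0.695%), and DESeq2 (35 members tested) and limma on log2(FPKM + 1) (34 tested) also gave 0 called members and 0 at that unadjusted threshold. The log2 fold change of APEX1-OE over Ctrl was above 0 for 11 of 35 members, or 31.4%, while it was above 0 for 57.5% of all tested genes. The median was -0.073 over the members and 0.033 over all tested genes, with single members between -0.22 and 0.54. The median depended on the libraries used: it was -0.20 without APEX1-OE 1 and -0.039 without Ctrl 2. Leaving out 1 library at a time turned the sign of 17 of 35 members at least once, most often without APEX1-OE 3 (9 members) and without APEX1-OE 1 (7 members). The share over all tested genes is not given here, so this does not set the members apart from other genes. The CPM values of the groups did not overlap for 1 member, CES1, and for 3.39% of all tested genes. These are bulk libraries, in which fewer expressing cells and less RNA per cell cannot be told apart.

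**Figure D2:**
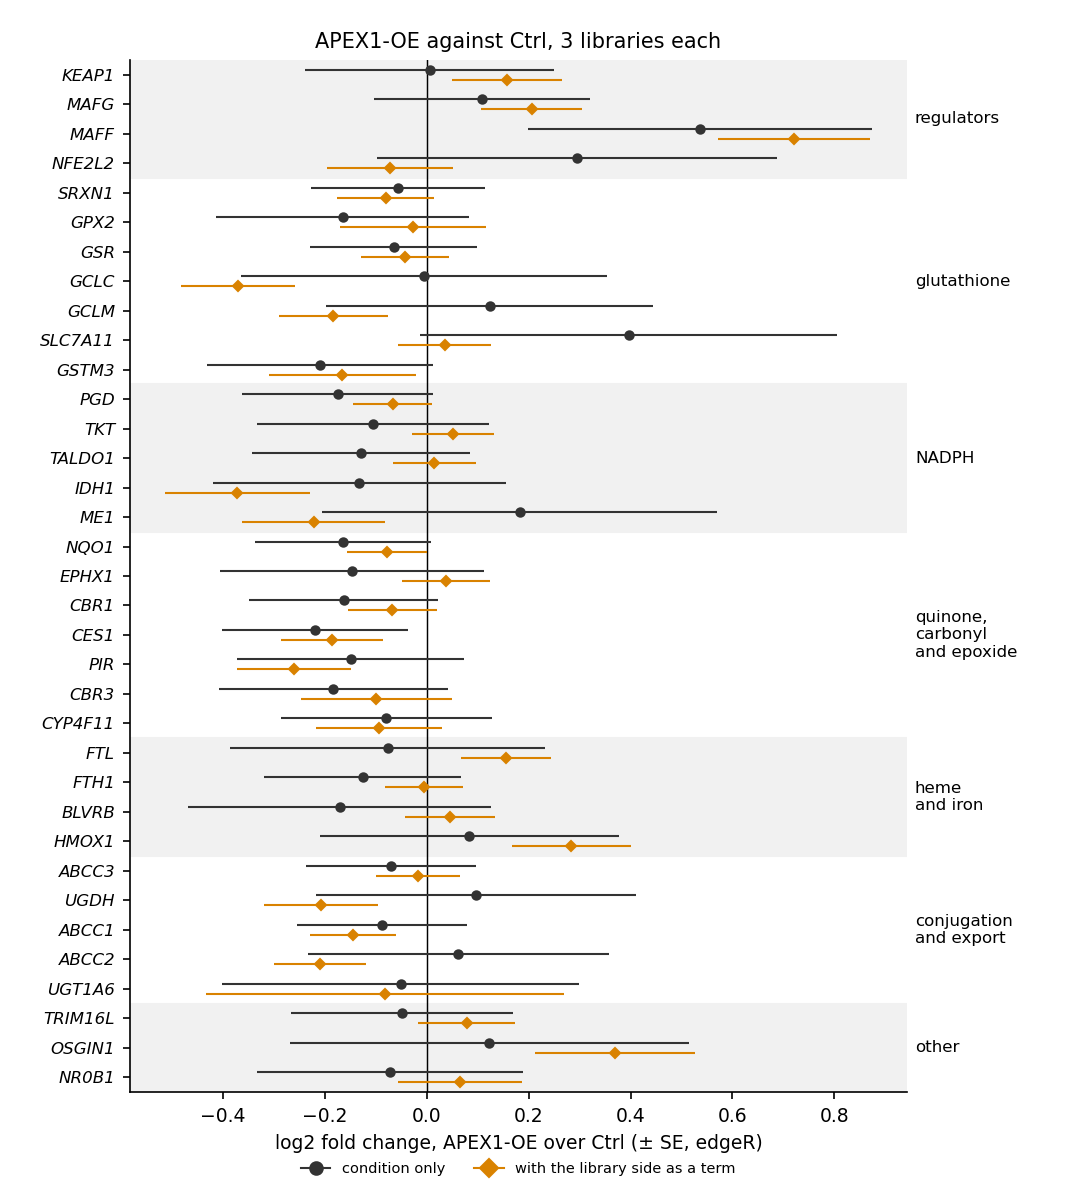
log2 fold change of APEX1-OE over Ctrl with its SE for each gene from edgeR, 3 libraries per group, with the condition as the only term (black circles) and with the library side as a term (orange diamonds). MAFF has the highest value in both fits (0.54 and 0.72), and 24 of the 35 black circles lie below 0.

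Among the regulators, NFE2L2 stood at 3.06, 7.55 and 9.06 FPKM in APEX1-OE 1, 2 and 3 and at 3.51, 4.24 and 7.86 FPKM in Ctrl 1, 2 and 3. The groups overlapped, and the 3 low libraries were those of the first side. The mean was 6.56 ± 3.12 FPKM (SD, n = 3) in APEX1-OE and 5.20 ± 2.33 FPKM (SD, n = 3) in Ctrl, and the log2 fold change was 0.30 ± 0.39 (SE). It was 0.041 without APEX1-OE 3 and 0.65 without Ctrl 3, and with the library side as a further term in the edgeR fit it was below 0 (-0.073 ± 0.12, SE). This transcript measures the message and not the NRF2 protein, whose amount KEAP1 is known to set after translation. KEAP1 stood at 24.4, 22.7 and 17.9 FPKM in APEX1-OE 1, 2 and 3 and at 23.6, 22.3 and 18.7 FPKM in Ctrl 1, 2 and 3. The groups overlapped almost fully, with the lowest level of each group on the second side (21.7 ± 3.33 FPKM in APEX1-OE and 21.5 ± 2.52 FPKM in Ctrl, SD, n = 3). The log2 fold change of KEAP1 was 0.0056 ± 0.24 (SE). It was below 0 without APEX1-OE 1 (-0.202) or Ctrl 3 (-0.127), and 0.169 without APEX1-OE 3. With the library side as a term it was 0.158 ± 0.108 (SE). The ratio of the NFE2L2 to the KEAP1 level in FPKM was 0.126, 0.332 and 0.505 in APEX1-OE 1, 2 and 3 and 0.149, 0.19 and 0.42 in Ctrl 1, 2 and 3. KEAP1 thus had the higher FPKM in all 6 libraries, and the ratio was at most 0.19 on the first side and at least 0.332 on the second. The size of the ratio depends on the gene lengths behind the FPKM, which are not known here. The exon GC content was 42.4% for NFE2L2 and 63.4% for KEAP1, and the side difference followed GC content, as described below.

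The small MAF proteins have no activation domain of their own and serve as the DNA-binding partners of NRF2. MAFG stood at 22.3, 20.1 and 17.8 FPKM in APEX1-OE 1, 2 and 3 and at 18.5, 19.1 and 18.2 FPKM in Ctrl 1, 2 and 3. Its groups overlapped, and its log2 fold change was 0.11 ± 0.21 (SE). Without APEX1-OE 1 that value was -0.091, and without APEX1-OE 3 it was 0.235. MAFF, which is known to be induced by stress, stood at 15.1, 11.3 and 7.55 FPKM in APEX1-OE 1, 2 and 3 and at 8.35, 8.55 and 6.72 FPKM in Ctrl 1, 2 and 3. APEX1-OE 1 and 2 lay above all Ctrl libraries and APEX1-OE 3 lay inside their range, so the groups overlapped. The mean was 11.3 ± 3.77 FPKM (SD, n = 3) in APEX1-OE and 7.87 ± 1.00 FPKM (SD, n = 3) in Ctrl. MAFF had the smallest p of the members and the highest log2 fold change, 0.54 ± 0.34 (SE), with an adjusted p of 1 from edgeR. It was 0.14 ± 0.26 (SE) without APEX1-OE 1 and 0.80 ± 0.29 (SE) without APEX1-OE 3. Within the first side, where APEX1-OE 1 is the only APEX1-OE library, the log2 difference between APEX1-OE and Ctrl was 0.95. Within the second side, where Ctrl 3 is the only Ctrl library, it was 0.45.

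Glutathione synthesis starts with glutamate-cysteine ligase, made of the catalytic subunit GCLC and the modifier GCLM, and depends on cystine taken up by SLC7A11. GCLC stood at 6.73, 17.3 and 19.4 FPKM in APEX1-OE 1, 2 and 3 and at 11.0, 11.2 and 20.2 FPKM in Ctrl 1, 2 and 3. APEX1-OE 1 was the lowest library and Ctrl 3 the highest, with a log2 fold change of -0.0053 ± 0.36 (SE). That value was -0.227 without APEX1-OE 3, and it was above 0 without APEX1-OE 1 (0.274) or Ctrl 3 (0.275). GCLM stood at 6.42, 14.96 and 16.1 FPKM in APEX1-OE 1, 2 and 3 and at 8.95, 9.19 and 15.4 FPKM in Ctrl 1, 2 and 3. It had the same order of sides as GCLC, with overlapping groups and a log2 fold change of 0.12 ± 0.32 (SE). That value was below 0 without APEX1-OE 2 (-0.0089), APEX1-OE 3 (-0.053) or Ctrl 1 (-0.012). The ratio of the GCLC to the GCLM level stayed between 1.05 and 1.31 in the 6 libraries, while each subunit varied by more than 2-fold in CPM. The 3 ratios of APEX1-OE (1.05, 1.16 and 1.21) lay below the 3 of Ctrl (1.23, 1.22 and 1.31), a gap that was chosen after its values were seen and was not tested.

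SLC7A11 stood at 3.92, 10.6 and 10.0 FPKM in APEX1-OE 1, 2 and 3 and at 4.06, 4.29 and 9.92 FPKM in Ctrl 1, 2 and 3. The 3 libraries of the first side lay between 3.92 and 4.29 FPKM and the 3 of the second between 9.92 and 10.6 FPKM, in both groups. The log2 fold change was 0.40 ± 0.41 (SE, adjusted p = 1 from edgeR), and within the sides the difference between APEX1-OE and Ctrl was 0.020 on the first and 0.048 on the second (log2). The fold change was 0.17 without Ctrl 1, and without Ctrl 3 it was 0.86 ± 0.36 (SE, adjusted p = 0.932 from edgeR), under an unadjusted p of 0.05 as were 3.47% of all genes tested without that library. APEX1-OE had 2 of its 3 libraries on the second side and Ctrl had 1 of 3.

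GPX2, a glutathione peroxidase, stood at 68.9, 55.1 and 88.9 FPKM in APEX1-OE 1, 2 and 3 and at 83.7, 85.7 and 65.2 FPKM in Ctrl 1, 2 and 3. In FPKM, APEX1-OE held both the highest and the lowest library, while in CPM, on which the fold change rests, Ctrl 2 was the highest. The log2 fold change was -0.17 ± 0.25 (SE), and 0.0091 without APEX1-OE 2. SRXN1, which reduces overoxidised peroxiredoxins, stood at 90.6, 123 and 103 FPKM in APEX1-OE 1, 2 and 3 and at 108, 97.8 and 121 FPKM in Ctrl 1, 2 and 3. Its groups covered nearly the same range, with a log2 fold change of -0.057 ± 0.17 (SE). GSR, which reduces oxidised glutathione, had a mean of 51.9 ± 5.53 FPKM in APEX1-OE and 53.5 ± 1.23 FPKM in Ctrl (SD, n = 3). GSTM3, a glutathione transferase with near copies in its family, had means of 1.62 ± 0.27 FPKM in APEX1-OE and 1.83 ± 0.081 FPKM in Ctrl. Of the 7 glutathione genes, 2 had a log2 fold change above 0, GCLM and SLC7A11, and with the library side as a term GCLM was below 0 (-0.18 ± 0.11, SE).

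NADPH for these reductases comes from the pentose phosphate pathway and from malic enzyme and isocitrate dehydrogenase. PGD, the 6-phosphogluconate dehydrogenase, stood at 525, 490.3 and 518 FPKM in APEX1-OE 1, 2 and 3 and at 598, 593 and 525 FPKM in Ctrl 1, 2 and 3. In FPKM, APEX1-OE 1 and Ctrl 3 met at the border of the groups, in CPM APEX1-OE 1 lay well above Ctrl 3, and the log2 fold change was -0.18 ± 0.19 (SE). The means of APEX1-OE and Ctrl were 434 ± 53.8 and 465 ± 54.1 FPKM for the transketolase TKT and 237 ± 19.0 and 258 ± 28.3 FPKM for the transaldolase TALDO1 (SD, n = 3). For malic enzyme ME1 they were 13.4 ± 7.001 and 11.4 ± 4.12 FPKM, and for IDH1 37.5 ± 16.9 and 39.9 ± 8.39 FPKM. ME1 varied most of these 5, from 5.71 FPKM in APEX1-OE 1 to 19.4 FPKM in APEX1-OE 3, that is within 1 group. Of the 5 genes only ME1 had a log2 fold change above 0 (0.18 ± 0.39, SE). With the library side as a term ME1 was below 0 (-0.22 ± 0.14, SE), TKT and TALDO1 were above it (0.051 and 0.015), and without APEX1-OE 3 ME1 was at -0.13.

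NQO1, a quinone reductase widely used as a readout of NRF2, stood at 401, 416 and 429.8 FPKM in APEX1-OE 1, 2 and 3 and at 479, 474 and 427 FPKM in Ctrl 1, 2 and 3. Ctrl 1 and 2 lay above the other 4 libraries, and Ctrl 3 lay between APEX1-OE 2 and APEX1-OE 3 in FPKM and below only APEX1-OE 1, Ctrl 1 and Ctrl 2 in CPM. The mean was 416 ± 14.3 FPKM in APEX1-OE and 460.1 ± 29.0 FPKM in Ctrl (SD, n = 3). The log2 fold change was -0.17 ± 0.17 (SE, adjusted p = 1 from edgeR). Leaving out 1 library gave values from -0.261 (without Ctrl 3) to -0.116 (without Ctrl 2). With the library side as a term NQO1 was at -0.079 ± 0.079 (SE). With a further offset on GC content and exon length, described below, it was at 0.010 ± 0.059 (SE). CES1, a carboxylesterase with near copies in the genome, stood at 16.1, 19.2 and 20.6 FPKM in APEX1-OE 1, 2 and 3 and at 21.3, 22.0 and 20.6 FPKM in Ctrl 1, 2 and 3. The highest APEX1-OE value, 20.55 FPKM, was 0.01 below the lowest Ctrl value, 20.56 FPKM, and CES1 is the only member without overlap. Its log2 fold change was -0.22 ± 0.18 (SE, adjusted p = 1 from edgeR).

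The other enzymes of this role had lower means in APEX1-OE too. They were 59.7 ± 3.00 against 65.9 ± 5.33 FPKM for the carbonyl reductase CBR1, and 3.74 ± 0.32 against 4.19 ± 0.22 FPKM for CBR3 (SD, n = 3). The epoxide hydrolase EPHX1 had 156 ± 27.9 against 173 ± 25.7 FPKM, and PIR, an iron-binding nuclear protein, 13.2 ± 3.56 against 14.3 ± 2.04 FPKM. CYP4F11, a cytochrome P450 with near copies, had 2.36 ± 0.34 against 2.45 ± 0.18 FPKM. All 7 genes of the role had a log2 fold change below 0, between -0.22 and -0.079, with SEs of 0.17 to 0.26. With the library side as a term EPHX1 was above 0 (0.038 ± 0.086, SE).

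Heme oxygenase HMOX1, which opens the heme ring, stood at 151, 125 and 90.8 FPKM in APEX1-OE 1, 2 and 3 and at 126, 128 and 93.9 FPKM in Ctrl 1, 2 and 3. APEX1-OE held the highest and the lowest library, and the log2 fold change was 0.083 ± 0.29 (SE). It was below 0 without APEX1-OE 1 (-0.22) or Ctrl 3 (-0.086), and 0.30 without APEX1-OE 3. FTL stood at 8321, 5819 and 5017 FPKM in APEX1-OE 1, 2 and 3 and at 7840, 7255 and 5186 FPKM in Ctrl 1, 2 and 3. Its 3 highest libraries were those of the first side, with means of 6386 ± 1723 FPKM in APEX1-OE and 6761 ± 1394 FPKM in Ctrl (SD, n = 3). FTH1 stood at 4095, 3820 and 3770 FPKM in APEX1-OE 1, 2 and 3 and at 4638, 4204 and 3813 FPKM in Ctrl 1, 2 and 3. The groups of both ferritin genes overlapped, and the log2 fold changes were -0.077 ± 0.31 for FTL and -0.13 ± 0.19 for FTH1 (SE). The value of FTL was -0.45 without APEX1-OE 1 and 0.12 without APEX1-OE 3. That of FTH1 ran from -0.274 without APEX1-OE 1 to -0.043 without Ctrl 1. With the library side as a term FTH1 was at -0.0058, and with the offset on GC content and exon length added it was at 0.037. Both ferritin genes have many processed pseudogenes, so their counts from uniquely mapped reads are uncertain. The ratio of the FTL to the FTH1 level was 2.03, 1.69 and 1.73 on the first side and 1.52, 1.33 and 1.36 on the second, in the order of the libraries given above. Ferritin made up 57.6% to 64.8% of the members' counts. BLVRB, a biliverdin reductase, had means of 226 ± 55.9 FPKM in APEX1-OE and 255 ± 47.2 FPKM in Ctrl (SD, n = 3).

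Of the conjugation and export genes, UGDH makes the glucuronate donor, and ABCC1, ABCC2 and ABCC3 export conjugates. UGDH had means of 74.1 ± 32.6 FPKM in APEX1-OE and 67.4 ± 20.8 FPKM in Ctrl (SD, n = 3). The 3 transporters had means of 53.0 ± 9.97 and 55.3 ± 5.13 FPKM (ABCC1), 33.9 ± 13.1 and 31.7 ± 10.4 FPKM (ABCC2), and 85.9 ± 2.92 and 89.4 ± 1.66 FPKM (ABCC3). UGT1A6, which shares exons with the other UGT1A genes, stood at 0.16, 0.14 and 0.33 FPKM in APEX1-OE 1, 2 and 3 and at 0.21, 0.21 and 0.22 FPKM in Ctrl 1, 2 and 3. It rested on 17 to 40 counts per library, which leaves its fold change imprecise (-0.052 ± 0.35, log2 and SE). The value was -0.46 without APEX1-OE 3 and 0.2 without APEX1-OE 2. OSGIN1, a growth inhibitor induced by oxidative stress, stood at 22.0, 15.3 and 9.31 FPKM in APEX1-OE 1, 2 and 3 and at 16.6, 15.8 and 10.8 FPKM in Ctrl 1, 2 and 3. APEX1-OE spanned the whole range of Ctrl, and the log2 fold change was 0.12 ± 0.39 (SE). It was below 0 without APEX1-OE 1 (-0.35) or Ctrl 3 (-0.082), and 0.42 without APEX1-OE 3. TRIM16L, a near copy of part of TRIM16, had means of 76.6 ± 9.60 and 79.0 ± 6.13 FPKM, and the nuclear receptor NR0B1 7.54 ± 1.26 and 7.93 ± 0.63 FPKM (SD, n = 3).

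The members were next sorted by library side (plot of deviations by library), as a description, since the sides were made from these counts. For 23 of 35 members the CPM values of the second side did not overlap those of the first, 7 of them higher and 16 lower, and the share over all tested genes was 66.4%. The members' share, 65.7%, was close to that of all genes, of which 35.5% were higher and 30.9% lower. The split of the members depended on the scale. In FPKM, 11 members were higher and 11 lower without overlap, beside 42.2% and 21.2% of the tested genes with an FPKM value. KEAP1, NQO1, CBR1, CBR3 and ABCC3, lower in CPM, overlapped between the sides in FPKM, and IDH1, PIR, CYP4F11 and ABCC1, which overlapped in CPM, were higher in FPKM. The members higher on the second side in both scales were NFE2L2, GCLC, GCLM, SLC7A11, ME1, UGDH and ABCC2, with log2 differences between 0.68 (ABCC2) and 1.13 (SLC7A11). All 4 heme and iron genes were lower on the second side in CPM, and so were PGD, TALDO1, TKT, NQO1, CBR1, CBR3, EPHX1, KEAP1, ABCC3, OSGIN1, TRIM16L and NR0B1, with OSGIN1 at -0.82 and FTL at -0.73. NFE2L2 and SLC7A11 were 2 and 2.19 times as high in CPM on the second side as on the first, and OSGIN1 and FTL 1.77 and 1.66 times as high on the first. APEX1-OE 1 was the lowest or the highest of the 6 libraries for 23 of 35 members and for 66.4% of all tested genes, and APEX1-OE 3 for 20 of 35 members and 48.2% of all tested genes. Each of the other 4 libraries was so for 3 to 10 members and for 16% to 28.9% of all tested genes.

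**Figure D3:**
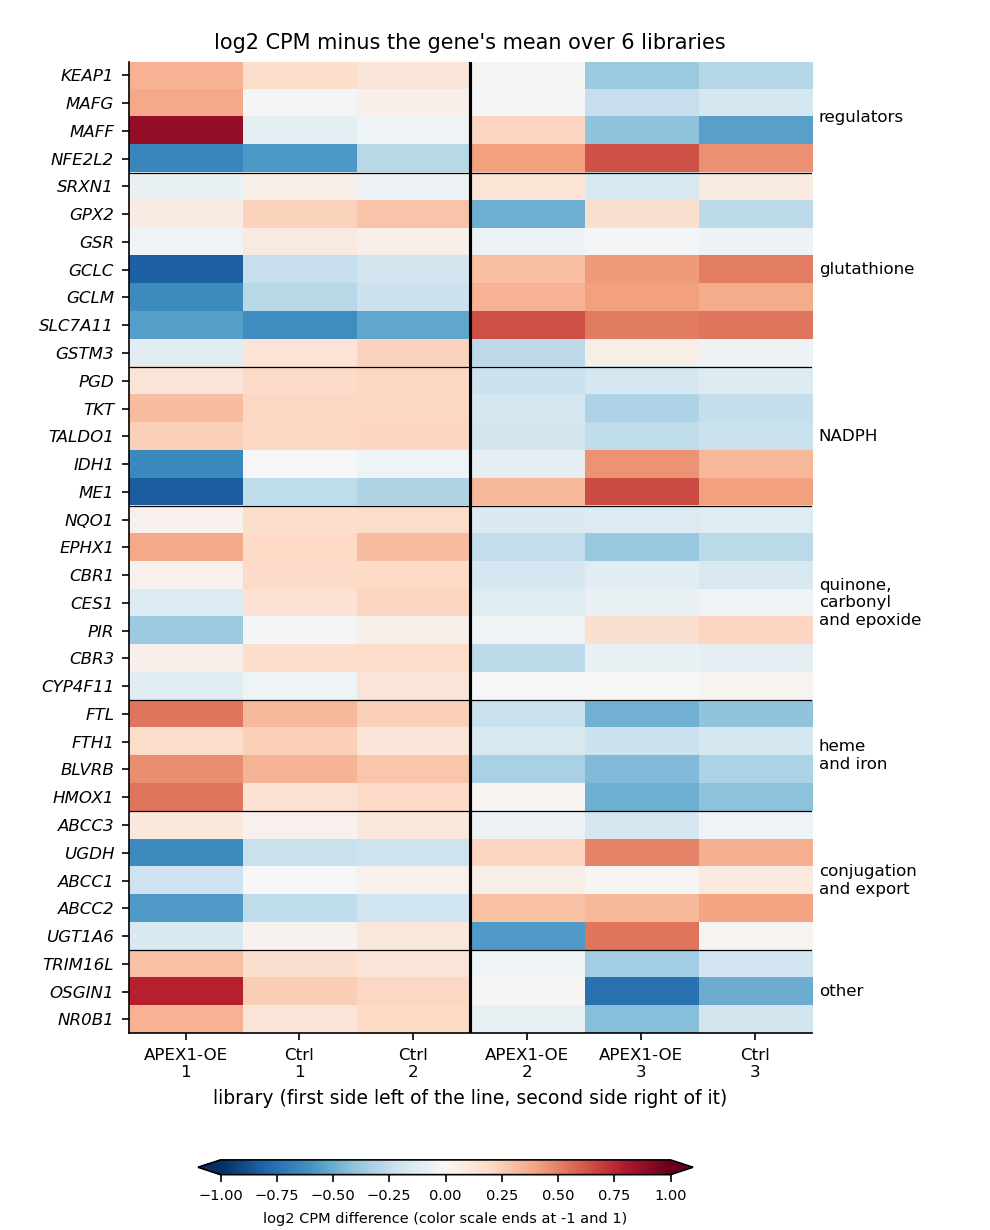
Deviation of log2 CPM from each gene's mean over the 6 libraries, by role, with the first side of the first component left of the thick line and the second side right of it (red above the mean, blue below). SLC7A11 and ME1 turn from blue to red across the line and FTL, BLVRB and OSGIN1 from red toward blue, in APEX1-OE and Ctrl alike.

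The direction of the side difference followed the base composition of the genes (plot against GC content). Across the 35 genes, which share the same 6 libraries and are not independent replicates, Spearman's rho between exon GC content and the log2 side difference was -0.86 (n = 35), and across all tested genes with an annotation it was -0.81 (n = 16746). The genes higher on the second side had 35.4% (SLC7A11) to 44.8% GC (UGDH), while KEAP1 had 63.4% GC and BLVRB 59.5% GC. A spline offset on GC content and on exon length, chosen after seeing the data, was fitted in each library to these same values. A smaller side difference over all genes was thus built in and tests nothing. With the offset the median absolute side difference of the members was 0.16 in place of 0.43 (log2), and over all tested genes 0.22 in place of 0.50. Spearman's rho with GC content was then -0.31 over the members and -0.047 over all tested genes with an annotation. SLC7A11 then differed by 0.18, NFE2L2 by 0.28 and GCLM by -0.031 (log2). NQO1, with 44.8% GC, went against this order: its difference between the second and the first side was -0.27 (log2) as measured and -0.58 with the offset. With the offset in the comparison of APEX1-OE with Ctrl, 0 members were called by edgeR and 1 member, MAFF, had an unadjusted p under 0.05, as did 3.01% of all tested genes. MAFF was then at 0.51 ± 0.16, SLC7A11 at 0.096 ± 0.13, NFE2L2 at 0.098 ± 0.14 and GCLM at -0.12 ± 0.092 (log2 fold change and SE). What sets the sides was not tested.

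**Figure D4:**
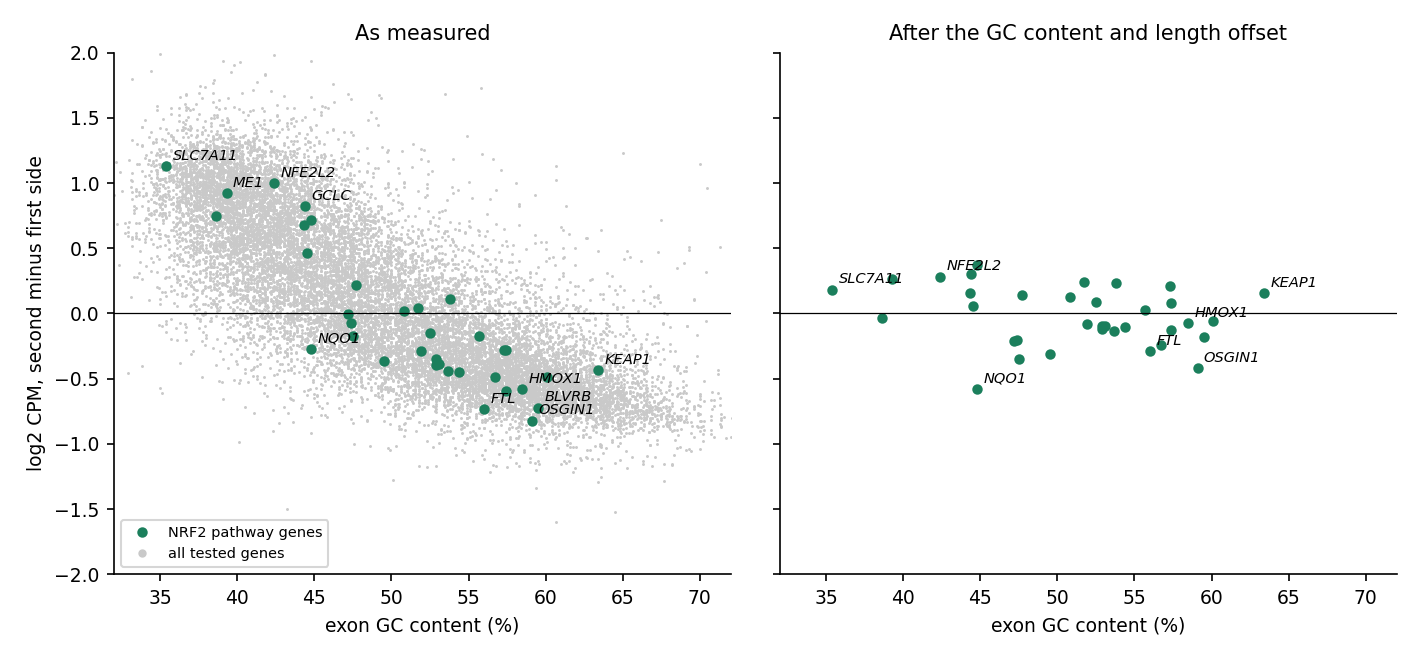
Difference in log2 CPM between the second and the first side against exon GC content for the 35 genes (green), with all tested genes in grey as measured (left; 16691 of 16746 genes lie within the axes) and the 35 genes after the GC content and length offset (right). The members run from 1.13 for SLC7A11 to -0.82 for OSGIN1 on the left and from 0.37 for UGDH to -0.58 for NQO1 on the right.

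With the library side as a term in the edgeR fit, 0 of 35 members were called at an adjusted p under 0.05, and 4 of all tested genes were (0.0236%). At an unadjusted p under 0.05 the fit had 7 of 35 members, or 20%, and 11.6% of all tested genes. The log2 fold change was then above 0 for 13 of 35 members (37.1%) and for 51.6% of all tested genes. NFE2L2, GCLM, ME1, UGDH and ABCC2 had turned below 0, and TKT, TALDO1, EPHX1, BLVRB, FTL, TRIM16L and NR0B1 above it. The 7 genes under the unadjusted threshold were MAFF, HMOX1 and OSGIN1, with log2 fold changes above 0 (0.72, 0.28 and 0.37), and GCLC, IDH1, PIR and ABCC2, with values below 0 (-0.37, -0.37, -0.26 and -0.21). Those above 0 had 58.5% to 60.1% exon GC content and a lower mean log2 CPM on the second side. Those below 0 had 44.3% to 47.7% and a higher mean there. The term gives all libraries of a side the same shift, although APEX1-OE 1 lay farther out than Ctrl 1 and Ctrl 2. How far this enters these values was not tested. With the GC content and length offset added there were 6 members under that threshold, beside 12.3% of all tested genes. They were MAFF, GCLC, IDH1 and PIR again, with CES1 (-0.21) and ABCC1 (-0.20), while HMOX1 (0.17), OSGIN1 (0.24) and ABCC2 (-0.12) no longer passed it. Without the offset the smallest adjusted p was 0.18 from edgeR, for MAFF (0.72 ± 0.15, SE), which was higher in APEX1-OE in both sides. GCLC was -0.37 ± 0.11 (SE, adjusted p = 0.36 from edgeR), with a difference of -0.61 within the first side, where APEX1-OE 1 is the only APEX1-OE library, and of -0.15 within the second. The fit takes the sides as known although they come from the same counts, which its p-values do not account for.

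The fold changes were also set beside the core motif. Of the 12 members with the core in a window, 4 had a log2 fold change above 0 and the median was -0.11, and of the 14 with a window and no core, 5 were above 0 and the median was -0.065. Among the genes shown with their windows, MAFF was the highest of all members in log2 fold change and PGD among the lower ones (-0.18).

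The other genes of the pathway were read from 4 lists. Of 16 other regulators, 15 were tested, 0 were called and 13 had a log2 fold change above 0. SQSTM1, which can sequester KEAP1, was the most abundant (648 ± 188 FPKM in APEX1-OE and 594 ± 81.2 FPKM in Ctrl, SD, n = 3), and BACH1, a repressor at the same elements, had the largest log2 fold change of them (0.47 ± 0.45, SE). With the library side as a term BACH1 was at 0.036 ± 0.14 (SE), and 9 of the 15 regulators were above 0. Of 35 other targets and glutathione or NADPH genes, 33 were tested, 0 were called and 7 had a value above 0, with a median of -0.081. With the library side as a term the direction of that list did not hold: 17 of 33 (51.5%) were above 0 and the median was 0.034. With the side and the GC content and length offset together the median was -0.029. In that list the glutathione transferase GSTP1 was the most abundant (646 ± 176 and 662 ± 140 FPKM) and GSTA4 had the largest change (-0.29 ± 0.26, SE). SOD1 was the most abundant of the 3 uncalled superoxide and peroxide enzymes tested, at 137 ± 32.1 and 141 ± 10.1 FPKM, and CAT had the largest change (-0.11 ± 0.32, SE). The list of 6 serine and folate genes includes ATF4, a transcription factor and not an enzyme of these pathways. All 6 had a value above 0, with a median of 0.18 and 0 called, and all 6 were also above 0 with the library side as a term. ATF4 was the most abundant of them (179 ± 18.7 and 176 ± 9.93 FPKM), and PHGDH, which starts serine synthesis, had the largest change (0.31 ± 0.36, SE). At an unadjusted p under 0.05, none of these 4 lists had a gene in edgeR's test, in DESeq2 or in limma on log2(FPKM + 1). With the library side as a term in edgeR, 0 genes of the lists were called, and the counts under that unadjusted threshold were 3 of 15 other regulators, 4 of 33 other targets, 2 of 3 superoxide and peroxide enzymes and 3 of 6 serine and folate genes. The same fit had 11.6% of all tested genes there. With the GC content and length offset added, the counts were 1, 4, 1 and 5 in the same order, beside 12.3% of all tested genes, and again 0 were called. The superoxide and peroxide enzyme counted there was SOD2 (-0.29 ± 0.064, log2 fold change and SE). SOD2 had no annotation of GC content and length, and genes without one were left without the offset. PHGDH had 0.54 ± 0.14 (SE) with the side as a term, with an adjusted p of 0.316 from edgeR.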

How the data were processed

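RNA-seq of 6 A549 libraries was analysed. The authors aligned reads to GRCh38 with TopHat2 and from uniquely mapped reads made the deposited counts, which hold whole reads without normalisation. The authors also made the deposited FPKM values. The sources used here give neither the counting tool and annotation nor whether strand was used, so overlapping and antisense genes cannot be told apart.

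Counts were filtered with filterByExpr (minimum count 10, minimum total 15), normalised by TMM and tested with edgeR 4.0.16 (quasi-likelihood F-test, robust, condition only, Benjamini-Hochberg over all tested genes at 0.05) in R 4.3.3. limma 3.58.1 on log2(FPKM + 1) and DESeq2 1.42.0 were alternatives. log2 CPM used a prior count of 2. The condition-only edgeR fit was tested on simulated counts as a check of the code; these held no library sides, so the check does not show how the fit performs where libraries stand apart as they do here. Every pair of libraries differed beyond sampling noise. GC content and exon length came from GENCODE release 44 on GRCh38 (97.0% of identifiers found, all 35 members), and promoter windows from RefSeq. Figures were drawn in Python 3.11.15 with matplotlib 3.10.9.

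The members and lists were chosen with earlier results of these data known. Values in every library were given, by rule, for the regulators, for 11 well-known targets, for the highest and lowest member in FPKM and for the 3 members with the smallest p. From each other list the rule named called genes, the most abundant gene and the one with the largest change.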

Additional observations from a re-analysis of the deposited data

How the results depend on the processing

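In all 18 alternatives 0 members were called, with edgeR, DESeq2 and limma, and the smallest adjusted p of a member was 0.106 (MAFF, with the library side and an offset on GC content and length). Of 35 members, 11 had the same sign of the log2 fold change in every alternative, MAFF and SLC7A11 above 0 and the other 9 below. The share over all tested genes is not given here. Called genes, 1 as reported, were 10 without a filter on low counts, 4 with the library side as a term and 20 with the side and that offset together. Members at an unadjusted p under 0.05, 0 as reported, were 7 with the side, 6 with the side and the offset and 1 with the offset alone, where 11.6%, 12.3% and 3.01% of all tested genes passed it; both settings with the offset were chosen after seeing the data. With the replicate block 2 genes were called, 2 members (MAFF and SLC7A11) and 3.31% of all tested genes passed the unadjusted threshold and the members' median was -0.092. The labels do not say whether libraries with the same number form a pair. Deviations of libraries with the same number correlated at 0.607, -0.521 and 0.70, and not every library correlated best with its own number. The signs of these correlations follow the library sides, so they cannot show whether the libraries were paired. Leaving out each library in turn gave 0 to 1 called genes, 0 to 1 members at the unadjusted threshold (0.383% to 7.61% of all tested genes), 9 to 12 members above 0 and a median between -0.20 and -0.039. The member was BLVRB without APEX1-OE 1 (-0.52 ± 0.22, log2 fold change and SE; 7.61% of all tested genes), MAFF without APEX1-OE 3 (0.80 ± 0.29; 0.871%) and SLC7A11 without Ctrl 3 (0.86 ± 0.36; 3.47%). APEX1 was not called without APEX1-OE 2, APEX1-OE 3, Ctrl 1 or Ctrl 2. The causes were not tested. With 3 libraries a group, and sides that split both groups unevenly, small differences in these genes cannot be told from the spread between libraries, and a missed threshold does not show that levels were equal.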
